A study of Mus musculus with 12 samples.

Results

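RNA-seq of isolated mouse cardiomyocytes gave 12 libraries, of which 4 had more than 20 times as many counts of Dbp as of Arntl and 8 did not. These 4 libraries were chosen by that raw count ratio, a readout of the same data, and not by a label. They are NX JV101 replicates 1 and 3, NX saline replicate 2 and sham JV101 replicate 3, and no sham saline library is among them. All mice were wild-type C57BL6 animals killed 16 weeks after 5/6 nephrectomy (NX) or a sham operation. Each surgery was combined with an injection of JV101 or of saline, giving the groups NX JV101, NX saline, sham JV101 and sham saline with 3 libraries each. The labels do not say what JV101 contains, at what time of day hearts were collected, or whether replicates came from separate mice, so each p-value covers no more than the variation among these libraries, which may be technical. Since the split was made on 2 of the measured genes, every difference between the 4 and the 8 libraries below is a description with no p-value, and Dbp and Arntl are left out of all counts of genes that differ.

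The circadian clock of a cardiomyocyte is a feedback loop of transcription factors. The proteins of Arntl (BMAL1) and Clock bind E-boxes and drive the Per, Cry, Ciart, Nr1d1, Nr1d2 and Dbp genes. Period and cryptochrome proteins then repress that activity, and the REV-ERB proteins of Nr1d1 and Nr1d2 repress Arntl through response elements that ROR proteins activate. In peripheral tissues of the mouse, including the heart, Dbp and Arntl peak at nearly opposite times of day, and heart clocks set rhythms of metabolic, ion channel and sarcomere genes.

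The promoters of 4 genes of this loop show the letters through which those factors act. They are the sequences from 250 bases before to 50 after the transcription start that RefSeq gives on GRCm38.p6 (the deposited data used GRCm39), read 5′ to 3′ on the strand of the gene, with the motif in capitals. Tef (chr15:81802423-81802722, plus strand) and Ciart (chr3:95882179-95882478, minus strand) are shown for E-boxes, Per3 (chr4:151044616-151044915, minus strand) for D-boxes, which bind the products of Dbp, Tef and Hlf, and Arntl (chr7:113207261-113207560, plus strand) for a ROR and REV-ERB element. Tef has 2 listed promoters, and the E-box of the promoter shown lies at -127 relative to the start. The other promoter, not shown, holds an E-box at -138. The 3 E-boxes of Ciart lie from -116 to -44, the 2 D-boxes of Per3 at -205 and -158, and the element of Arntl at 30.
Tef: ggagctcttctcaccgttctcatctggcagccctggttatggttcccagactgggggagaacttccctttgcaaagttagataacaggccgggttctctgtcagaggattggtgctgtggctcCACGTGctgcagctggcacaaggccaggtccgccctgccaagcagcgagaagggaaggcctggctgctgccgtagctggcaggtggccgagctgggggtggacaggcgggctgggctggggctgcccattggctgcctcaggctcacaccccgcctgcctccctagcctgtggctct
Ciart: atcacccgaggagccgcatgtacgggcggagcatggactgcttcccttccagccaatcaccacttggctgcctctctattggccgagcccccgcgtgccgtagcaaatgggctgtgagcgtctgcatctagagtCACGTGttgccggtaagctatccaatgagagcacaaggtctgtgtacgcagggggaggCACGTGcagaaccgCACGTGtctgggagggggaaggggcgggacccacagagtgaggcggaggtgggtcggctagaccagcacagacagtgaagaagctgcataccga
Per3: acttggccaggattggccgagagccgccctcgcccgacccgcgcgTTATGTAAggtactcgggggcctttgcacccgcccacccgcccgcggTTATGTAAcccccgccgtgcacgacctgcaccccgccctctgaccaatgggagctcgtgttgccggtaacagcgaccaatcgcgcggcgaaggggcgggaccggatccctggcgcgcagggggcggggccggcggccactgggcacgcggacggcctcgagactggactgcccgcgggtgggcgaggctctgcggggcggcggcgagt
Arntl: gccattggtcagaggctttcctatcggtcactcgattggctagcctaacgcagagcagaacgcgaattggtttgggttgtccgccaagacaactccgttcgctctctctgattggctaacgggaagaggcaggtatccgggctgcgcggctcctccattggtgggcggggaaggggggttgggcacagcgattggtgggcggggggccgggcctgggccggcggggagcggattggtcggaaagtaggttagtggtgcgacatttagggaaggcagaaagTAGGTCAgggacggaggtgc

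Searched on both strands, an E-box (CACGTG) was found in 6 of the 23 promoters listed for 17 of the 20 clock genes (26.1%), against 7.15% of 32851 mouse promoters of the same length. The variant CACGTT was found in 4 of the 23 (17.4%, against 4.685%), a D-box (TTATGTAA, TTATGCAA or TTACGTAA) in 2 (8.70%, against 1.78%) and TAGGTCA, the ROR and REV-ERB element, in 2 (8.70%, against 2.61%), 1 of them the Arntl promoter shown. None of these words contains another, and CACGTG and CACGTT differ in the last base. Of the genes that lay wholly above in the 4 libraries, described below, 52 of 67 had promoters in the table, and 14.1% of their 64 promoters held CACGTG. These 9 promoters belong to 8 genes, of which Ciart and Tef are clock genes already counted above. Of the genes that lay wholly below, 43 of 59 had promoters, and 10.2% of their 49 promoters held CACGTG. A match is a description of the letters and shows no binding.

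Levels are given as CPM, the counts of a gene relative to the total of its library, scaled between libraries by TMM. Dbp, a PAR bZIP transcription factor and direct output of the clock, had 79.1 and 60.7 CPM in NX JV101 replicates 1 and 3, 57.0 in replicate 2 of NX saline and 57.4 in replicate 3 of sham JV101. In the 8 others it ranged from 6.999 to 36.7 CPM with a median of 8.87. Arntl had 0.920, 0.972, 1.58 and 1.08 CPM in the same 4 libraries, and 5.47 to 14.8 CPM with a median of 10.2 in the others. The ratio of raw counts was 86, 62.5, 36.0 and 53.2 in these 4, which puts the lowest of them above the threshold of 20. The next highest, well below the threshold, were NX saline replicate 1 at 6.29 and sham JV101 replicate 1 at 5.11. The remaining 6 libraries lay between 0.509 and 1.08. The 12 libraries thus fell at 3 levels, and the pair between 5 and 7 is marked in the plots.

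**Figure D1:**
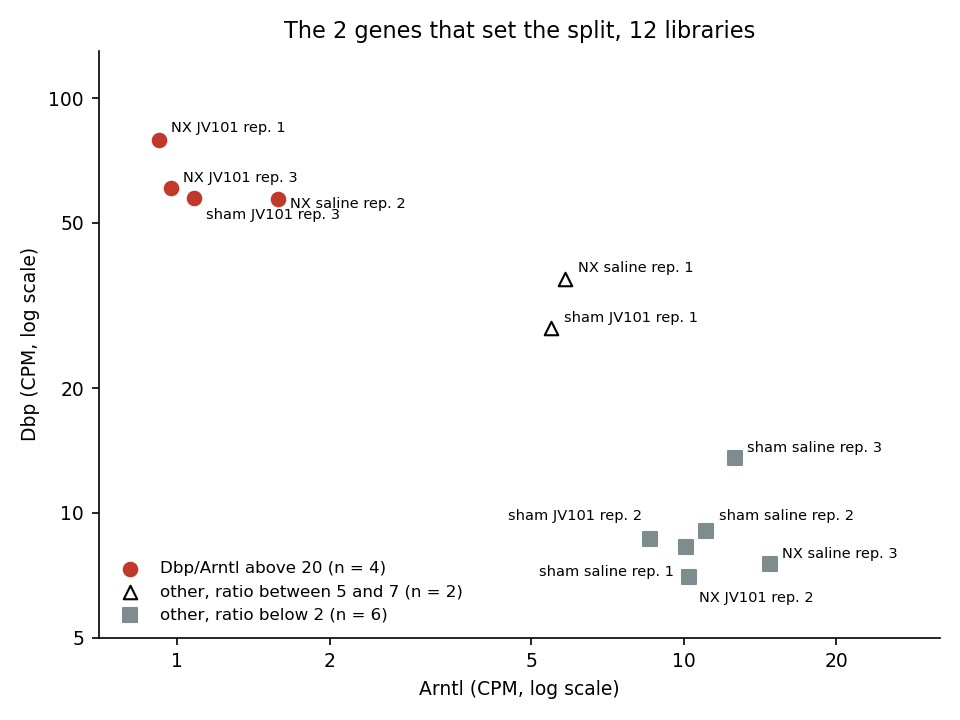
Level of Dbp (vertical axis) against Arntl (horizontal axis), both in CPM on log scales, 1 point per library. The 4 libraries with a count ratio above 20 lie at the upper left, with Dbp at 57.0 CPM or more and Arntl at 1.58 CPM or less, and the 2 libraries of intermediate ratio lie between them and the other 6.

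The 4 libraries held 30.6 to 31.5 M counts and the 8 others 26.4 to 33.8 M, and 38.3% to 52.9% against 36.7% to 69.0% of these came from the 13 protein genes of the mitochondrial genome. Markers of cardiomyocytes summed to 37587 to 55796 CPM in the 4 and 28902 to 51006 CPM in the 8, so the labelled cell type had its markers in every library. All 8 markers each of fibroblasts, endothelial cells, mural cells and macrophages were also detected. Their fitted differences were negative for 8 of 8 in each of these lists, with medians of -0.86, -0.83, -0.72 and -0.86 (log2). The summed fibroblast markers were 476 to 1537 CPM in the 4 libraries and 759 to 2713 CPM in the 8, so the ranges overlapped. The lowest sum of all 12 was that of sham JV101 replicate 3 and the highest that of NX JV101 replicate 2, which has a low ratio. Markers of airway epithelium, a lung cell type, summed to values that ranged from 0.0249 to 130 CPM in the 4 and from 0.0317 to 88.5 CPM in the 8. Fitted differences were positive for 4 of 4 airway markers tested, 6 of 6 adipocyte markers and 7 of 8 cardiomyocyte markers. Their medians were 3.04, 1.36 and 0.19. They were negative for 5 of 5 erythroid markers tested, with a median of -1.72. In such bulk samples fewer cells of a type and less RNA per cell cannot be told apart.

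Of 18 other clock genes, all of which passed the filter on low counts, 7 had no overlap of CPM between the 4 and the 8 libraries. Among all 14410 tested genes other than Dbp and Arntl, 67 lay wholly above (0.465%) and 59 wholly below (0.409%). The 6 clock genes that lay wholly above were Ciart, Per3, Tef, Nr1d2, Hlf and Cry2, and the 1 that lay wholly below was Clock.

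Among the repressors, Ciart, whose product CHRONO represses the BMAL1 and CLOCK pair, had 8.96 and 5.83 CPM in NX JV101 replicates 1 and 3, 5.92 in replicate 2 of NX saline and 7.31 in replicate 3 of sham JV101. The 8 others had 0.904 to 2.44 CPM with a median of 1.38. Its fitted difference, with the labelled group as an additive term, was 2.06 ± 0.37 (log2, ± SE). Within the 3 groups that hold both kinds of library the difference was 1.86 in NX JV101, 1.55 in NX saline and 2.04 in sham JV101. Per3, a period gene, had 30.0, 24.7, 25.3 and 23.1 CPM in the 4 libraries in that order, against 5.51 to 15.2 CPM with a median of 9.94 in the others. Its fitted difference was 1.39 ± 0.29, and the highest of the others were the pair of intermediate ratio. Nr1d2, which encodes REV-ERB beta, had 87.6, 80.6, 95.3 and 70.7 CPM, against 28.0 to 63.2 with a median of 48.9, a fitted difference of 0.99 ± 0.23. Cry2, a cryptochrome, had 31.1, 26.1, 29.0 and 35.3 CPM, against 17.5 to 24.5 with a median of 18.9, a fitted difference of 0.69 ± 0.14. For these 4 repressors every library of the 4 therefore lay above every one of the 8, although the gap was narrow for Cry2, at 26.1 against 24.5 CPM.

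Of the outputs that share the PAR bZIP domain with Dbp, Tef had 150 and 116 CPM in NX JV101 replicates 1 and 3, 134 in replicate 2 of NX saline and 142 in replicate 3 of sham JV101. The 8 others had 46.1 to 73.9 CPM with a median of 64.9, so even the lowest of the 4 lay well above them. The fitted difference was 1.24 ± 0.16, with 1.51, 1.07 and 1.12 within NX JV101, NX saline and sham JV101. Hlf had 24.5, 19.8, 16.3 and 14.4 CPM, against 8.77 to 12.5 with a median of 11.03, a fitted difference of 0.76 ± 0.18. Per gene length, Dbp averaged 27.6 FPKM, Tef 21.3 and Hlf 3.47 in the 4 libraries, against 5.97 for Dbp, 8.86 for Tef and 1.81 for Hlf in the 8. Dbp was the most abundant of the 3 in the 4 libraries and Tef in the 8. Dbp counts set the split, so this change of rank is no result about Dbp. Of the activators, Clock, the partner of Arntl, had 20.2, 25.7, 24.03 and 17.6 CPM, against 30.8 to 43.2 with a median of 33.1, a fitted difference of -0.65 ± 0.15.

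The other 11 clock genes overlapped between the 4 and the 8 libraries, among them genes whose rhythms in mouse tissues are usually large. Nr1d1, which encodes REV-ERB alpha, had 34.7, 39.0, 42.03 and 21.6 CPM in the 4 libraries, against 16.9 to 48.8 with a median of 32.1. Its highest value was in NX saline replicate 1, of intermediate ratio, and the fitted difference was 0.19 ± 0.30. Per2 had 28.0, 31.7, 36.7 and 11.2 CPM, against 10.3 to 28.2 with a median of 18.1, so that sham JV101 replicate 3 was among the lowest of all 12. Per1 had 38.5, 65.5, 71.6 and 43.4 CPM, against 27.3 to 54.6 with a median of 36.6. Their fitted differences were 0.56 ± 0.42 for Per2 and 0.54 ± 0.24 for Per1, and Per1 lay wholly above within each of the 3 groups that hold both kinds, as did 876 of the 14410 genes (6.08%), while 764 lay wholly below within each (5.3%).

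Cry1, whose product is the cryptochrome that peaks late in the cycle, had 8.04, 10.4, 10.3 and 5.21 CPM in the 4 libraries, against 6.66 to 12.8 with a median of 11.4. Nfil3, a repressor at D-boxes, had 6.23, 10.5, 7.68 and 13.6 CPM, against 6.13 to 34.7 with a median of 17.7. Npas2, a relative of Clock, had 0.647, 1.94, 0.431 and 2.19 CPM, against 0.191 to 2.82 with a median of 1.58. The fitted differences of these genes were -0.39 ± 0.26, -0.42 ± 0.32 and -0.33 ± 0.74. Bhlhe41, a repressor at E-boxes, differed by 0.52 ± 0.27 and its relative Bhlhe40 by 0.02 ± 0.17. The ROR genes Rora and Rorb differed by 0.30 ± 0.15 and 0.64 ± 0.66, and Rorb stayed at 0.38 CPM or less in every library.

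For 13 of the 18 genes a side relative to Dbp is known from mouse peripheral tissues, and the fitted difference lay on that side for 13 of 13. These sides were written down after the values had been seen. For Per2 the fitted difference became -0.10 without NX saline replicate 2, and for Nr1d1 it became -0.25 without NX JV101 replicate 2. The 2 libraries of intermediate ratio lay between the other sets for 1 of the 18 genes, Per3. They also did so for Dbp and Arntl, but these 2 libraries were picked by the ratio of those genes. A place between the sets is possible only for a gene whose sets do not overlap, so most of the 18 could not show it. Judged by absence of overlap, the label of opposite circadian phase is borne out for a minority of clock genes. The libraries are therefore called here by their Dbp/Arntl ratio.

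**Figure D2:**
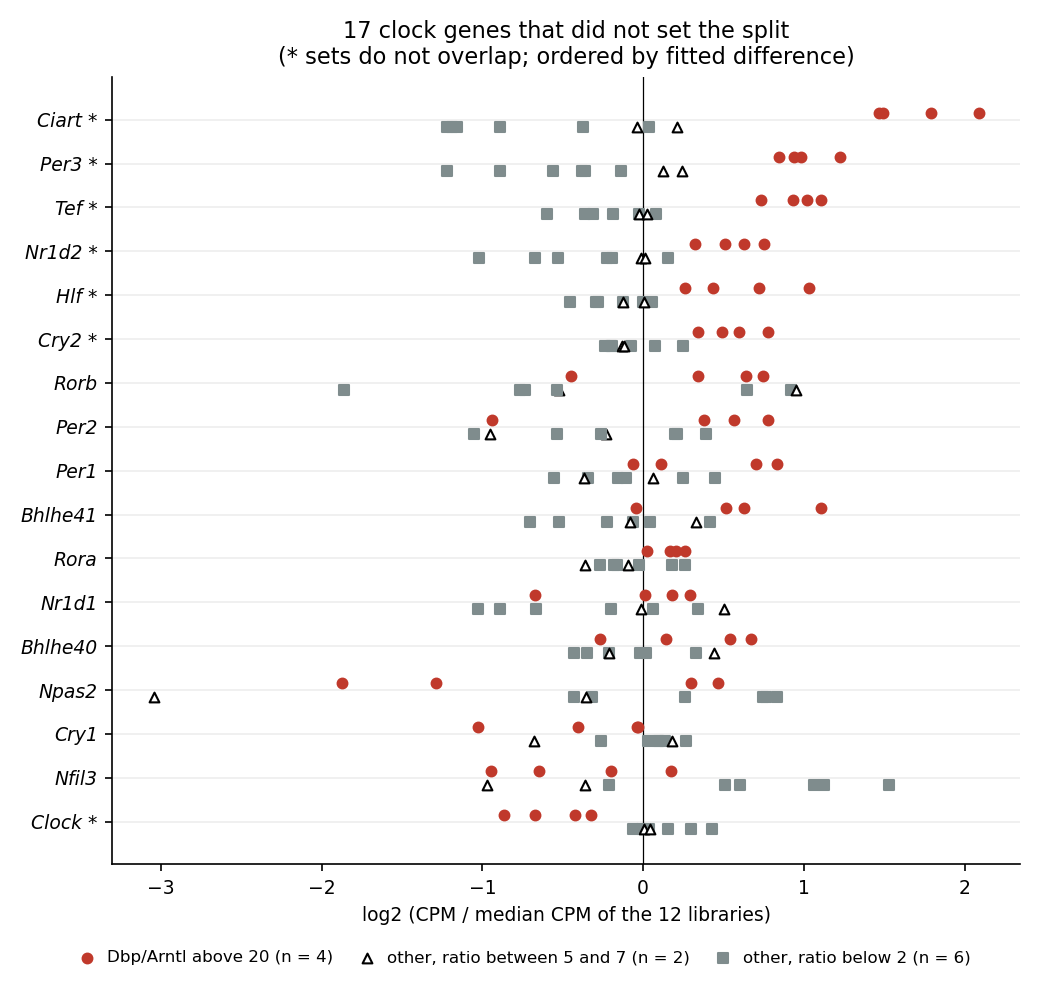
Level of 17 clock genes in each library as log2 of CPM over the median of the 12 libraries (horizontal axis), with genes down the page by fitted difference and the 4 libraries of high ratio drawn above the 8 others in each row. An asterisk marks the 7 genes without overlap: 6 with the 4 libraries to the right, and Clock with them to the left.

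Across the transcriptome, 11 genes had no overlap and a fitted difference of at least 2-fold upward (0.0763% of 14410) and 22 did downward (0.153%). With at least 1.5-fold these were 28 (0.194%) and 36 (0.25%). The counts shifted with single libraries: leaving out 1 library at a time gave 12 to 30 genes higher and 24 to 69 lower by 2-fold, with both maxima reached without NX saline replicate 2. With a mean of at least 1 CPM, 5 genes were higher by 2-fold. Ciart, Per3 and Tef, given above, were joined by Klhl33, which encodes a kelch-like protein, and the gene model Gm15743. Klhl33 had 16.0, 11.9, 16.3 and 19.2 CPM in the 4 libraries, against 5.73 to 11.1 with a median of 8.04, a fitted difference of 1.16 ± 0.19. Gm15743 had 3.20, 2.37, 2.73 and 4.04 CPM, against 1.04 to 1.94 with a median of 1.34.

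Further genes lay wholly above with a difference of 1.5-fold or more. Tcap, which encodes the titin cap protein of the sarcomere Z-disc, had 971 and 881 CPM in NX JV101 replicates 1 and 3, 842 in replicate 2 of NX saline and 851 in replicate 3 of sham JV101. In the 8 others it had 280 to 594 CPM with a median of 422. The 4 libraries were close to each other and none of the 8 came near them, with a fitted difference of 1.00 ± 0.23 and 1.18, 0.93 and 0.94 within NX JV101, NX saline and sham JV101. Foxo3, a forkhead factor restrained by insulin signalling, had 69.8, 70.6, 84.3 and 95.5 CPM, against 36.0 to 69.5 with a median of 51.3, which left a gap of less than 1 CPM. Pik3ip1, an inhibitor of PI3 kinase, had 38.2, 29.8, 28.9 and 28.7 CPM, against 11.3 to 22.9 with a median of 19.5. Gpcpd1, a glycerophosphocholine phosphodiesterase, had 212, 157, 176 and 215 CPM, against 108 to 148 with a median of 116. Mid1ip1, whose product stimulates acetyl-CoA carboxylase, had 119, 99.04, 86.1 and 105 CPM, against 37.1 to 74.1 with a median of 55.4. The fitted differences were 0.85 ± 0.18 for Foxo3, 0.94 ± 0.19 for Pik3ip1, 0.74 ± 0.13 for Gpcpd1 and 0.91 ± 0.22 for Mid1ip1.

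Lower by 2-fold, with a mean of at least 1 CPM, were 7 genes. Aldh1a2, which makes retinoic acid from retinaldehyde, had 4.09, 2.87, 3.97 and 3.68 CPM in the 4 libraries, against 7.39 to 10.8 with a median of 8.95. Its fitted difference of -1.32 ± 0.15 was -1.16, -1.31 and -1.18 within NX JV101, NX saline and sham JV101. Col5a3, a collagen V chain, had 4.19, 7.85, 8.36 and 3.05 CPM, against 9.01 to 23.3 with a median of 14.7, a fitted difference of -1.62 ± 0.35. Ciita, the master regulator of MHC class II genes, had 0.851, 1.40, 1.18 and 0.719 CPM, against 1.68 to 4.68 with a median of 2.84. Lrrc25, a gene of myeloid cells, Dtx4, Sdf2l1 and Afap1l2 differed by -1.73 ± 0.40, -1.18 ± 0.28, -1.08 ± 0.30 and -1.04 ± 0.25. Beside these, markers of neutrophils were negative for 7 of 7 tested, those of lymphocytes for 4 of 5 and those of mesothelial cells for 8 of 8, with medians of -1.29, -0.94 and -0.41. Their summed levels overlapped. Neutrophil markers summed to 2.79 to 21.0 CPM in the 4 libraries and 5.29 to 41.0 in the 8, lymphocyte markers to 1.32 to 4.57 and 3.02 to 15.4, and mesothelial markers to 35.3 to 58.8 and 43.2 to 122. The part of these cell types in the lower genes was not tested. Lower by 1.5-fold was Adm, the gene of the vasodilator adrenomedullin, with 4.97, 4.41, 4.08 and 3.05 CPM against 5.61 to 9.90 with a median of 7.22.

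**Figure D3:**
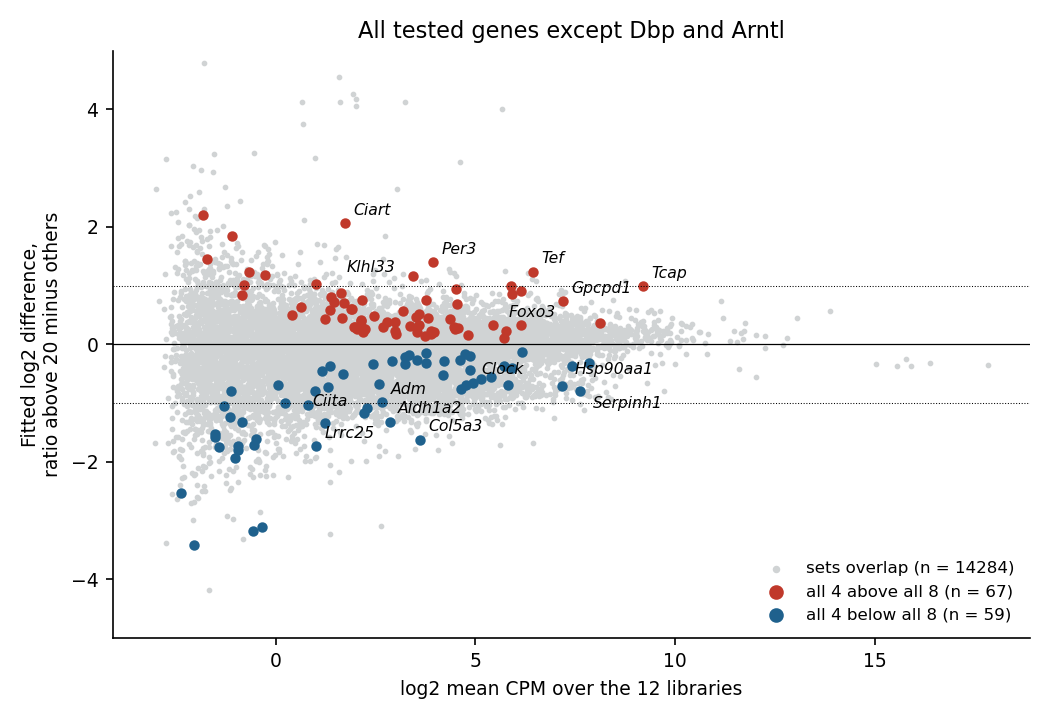
Fitted log2 difference, 4 libraries of high ratio minus 8 others, of all tested genes except Dbp and Arntl (vertical axis) against log2 mean CPM (horizontal axis). The 67 genes wholly above and 59 wholly below are coloured, dotted lines mark 2-fold, and Tef and Tcap stand out among abundant genes.

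The fitted differences of fibroblast markers were negative. The log2 of the summed CPM of these markers was therefore added to the fit after the data were seen. The clock genes without overlap kept differences of 2.06 ± 0.43 for Ciart, 1.34 ± 0.33 for Per3, 1.17 ± 0.17 for Tef, 1.14 ± 0.26 for Nr1d2, 0.78 ± 0.21 for Hlf, 0.55 ± 0.15 for Cry2 and -0.57 ± 0.17 for Clock. Tcap stood at 0.85 ± 0.24, Klhl33 at 0.95 ± 0.19, Gpcpd1 at 0.65 ± 0.14 and Aldh1a2 at -1.33 ± 0.18 in that fit. Col5a3 moved to -1.13 ± 0.32, Lrrc25 to -1.05 ± 0.29, Dtx4 to -0.67 ± 0.21 and Sdf2l1 to -0.60 ± 0.28.

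Gene lists of heart physiology were described by counts and medians beside the median of all genes, -0.01. Of 18 potassium channel genes 17 had a positive fitted difference, with a median of 0.50, but none was free of overlap. Kcnj2, of the inward rectifier current, had 44.2 CPM at most in the 4 libraries and 39.4 at most in the 8, with a fitted difference of 1.01 ± 0.24. Kcnh2, of the rapid delayed rectifier, differed by 0.87 ± 0.36 and Kcnd2, of the transient outward current, by 0.91 ± 0.35, while Kcna5 went the other way at -1.09 ± 0.57. Of 13 sodium, calcium and pacemaker channel genes 12 were positive, with a median of 0.40, and Cacna1c, of the L-type channel, differed by 0.65 ± 0.28. With the fibroblast marker sum in the fit, the medians were -0.02 for potassium channels, with 9 of 18 positive, and -0.03 for the other channels, with 6 of 13 positive. The potassium channel median also ranged from 0.26 without sham JV101 replicate 3 to 0.88 without NX saline replicate 2. The part of the other cell types in these channel values was not tested beyond that fit.

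Among metabolic genes, of 23 genes of glucose use and glycogen 22 were positive with a median of 0.22, and none was free of overlap. Pfkfb1, which makes the activator of phosphofructokinase, differed by 1.13 ± 0.23 and Slc2a4, the insulin-sensitive glucose transporter, by 0.50 ± 0.24. With the marker sum in the fit the median was 0.01 and 13 of 23 were positive. Of 16 genes of lipid storage and lipolysis 12 were positive with a median of 0.22, and with the marker sum 9 were positive with a median of 0.08. Fasn, the fatty acid synthase, had 17.4, 35.03, 52.6 and 34.9 CPM in NX JV101 replicates 1 and 3, NX saline replicate 2 and sham JV101 replicate 3, against 11.1 to 18.1 with a median of 16.3. Fasn is also in the adipocyte list, whose 7 other markers summed to 1.57, 14.6, 19.9 and 0.0898 CPM in the same 4 libraries and to 0.0768 to 6.39 CPM in the 8. In sham JV101 replicate 3 Fasn stood at 34.9 CPM with those markers near 0, and in NX JV101 replicate 1 it was within the range of the 8 others.

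Of 15 genes of autophagy and mitophagy 12 were positive, with a median of 0.13, and 1 was free of overlap. The member with the largest difference, Fbxo32 (atrogin-1), a ubiquitin ligase of muscle protein breakdown, had 93.5, 122, 137 and 134 CPM in the 4 libraries, against 42.02 to 116 with a median of 70.8, a fitted difference of 1.09 ± 0.19. Trim63 (MuRF1), another such ligase, had 104 to 116 CPM against 53.2 to 105, a fitted difference of 0.65 ± 0.16. The gene free of overlap was Sqstm1, which encodes the adaptor p62 and lay wholly above at 312 to 340 CPM against 233 to 279, a fitted difference of 0.36 ± 0.11. Fbxo32 and Trim63 also lay wholly above within each of the 3 groups, as 6.08% of all genes did. For Sqstm1 this follows from its absence of overlap. Depp1, of the same list, went the other way at -1.01 ± 0.59 with overlap, and stood at 0.01 ± 0.30 with the marker sum in the fit. With the marker sum in the fit the median of the list was 0.15.

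Of 18 genes that cycle in many mouse tissues 9 were positive and 9 negative, with a median of 0.01. With the marker sum in the fit 12 of 18 were positive and the median was 0.42. Wee1, a mitotic kinase gene with E-boxes known in mouse liver, lay wholly above at 10.7 to 13.5 CPM against 6.69 to 9.35, a fitted difference of 0.56 ± 0.14. Herpud1, of protein degradation at the endoplasmic reticulum, had 144, 140, 237 and 232 CPM, against 77.0 to 169 with a median of 115. Cdkn1a, a cyclin kinase inhibitor, differed by -1.36 ± 0.48 with overlap, at 8.27 to 56.8 CPM against 26.4 to 96.9. Among members with a mean of at least 1 CPM, Rgs16 differed most, by -1.85 ± 0.48 with overlap. Usp2, a deubiquitinase that acts on clock proteins, had 78.4, 49.9, 87.7 and 106 CPM, against 36.8 to 65.4 with a median of 47.2, a fitted difference of 0.94 ± 0.21. Of 10 modifiers of clock proteins, Usp2 among them, none was free of overlap, and their median was 0.05. The cold-inducible Cirbp and Rbm3, which bind RNA, differed by 0.73 ± 0.29 and 0.08 ± 0.16, and with the marker sum in the fit by 0.23 ± 0.23 and 0.01 ± 0.18.

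Of 20 heat shock genes 13 were negative and 7 positive, with a median of -0.25, while 7483 of all 14410 genes were negative. With the marker sum in the fit the median was -0.15 and 3 of 20 were positive. Hsp90aa1 and its cochaperone gene Chordc1 lay wholly below. Hsp90aa1, the inducible HSP90, had 58.3, 90.8, 104 and 68.4 CPM, against 112 to 371 with a median of 135, a fitted difference of -0.71 ± 0.32. Hspa1b differed by -1.23 ± 0.95 with overlap, at 2.67 to 51.0 CPM against 3.42 to 130 CPM. Of 19 collagen and matrix genes 18 were negative, with a median of -0.83 and no gene free of overlap. Col5a3, given above as wholly below, is not in that list. Col3a1 had 33.8 to 94.7 CPM in the 4 libraries and 51.0 to 156 in the 8. Their median moved to -0.42 on leaving out sham JV101 replicate 3, to -1.39 on leaving out NX saline replicate 2 and to -0.14 with the fibroblast marker sum in the fit. Immediate early genes had a median of -0.23 and glucocorticoid-responsive genes of -0.16, and with the marker sum these were 0.05 and 0.41.

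**Figure D4:**
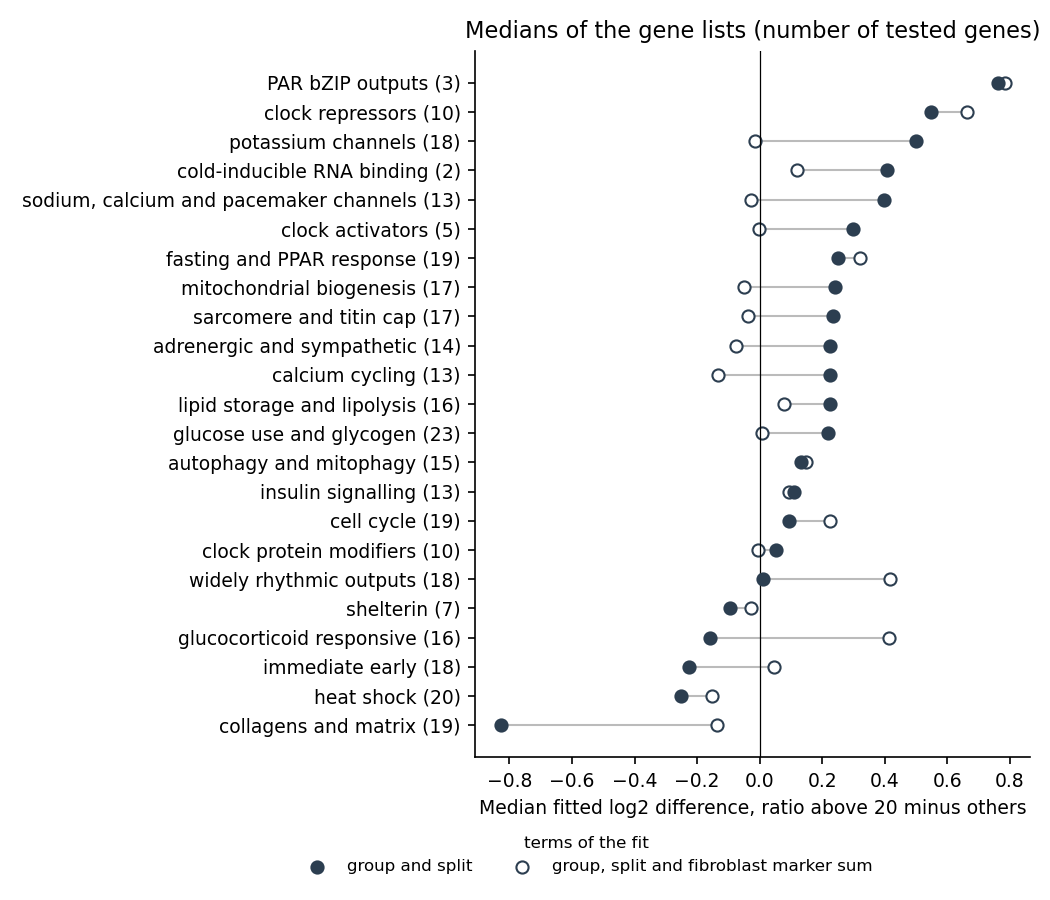
Median fitted log2 difference, 4 libraries of high ratio minus 8 others, of 23 gene lists (horizontal axis), with the number of tested genes beside each name. Filled points are from the fit with group and split, and open points from the fit that also holds the fibroblast marker sum; the PAR bZIP list lies at 0.76 and 0.78 and the repressors at 0.55 and 0.66, while potassium channels lie at 0.50 and -0.02.

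**Figure D5:**
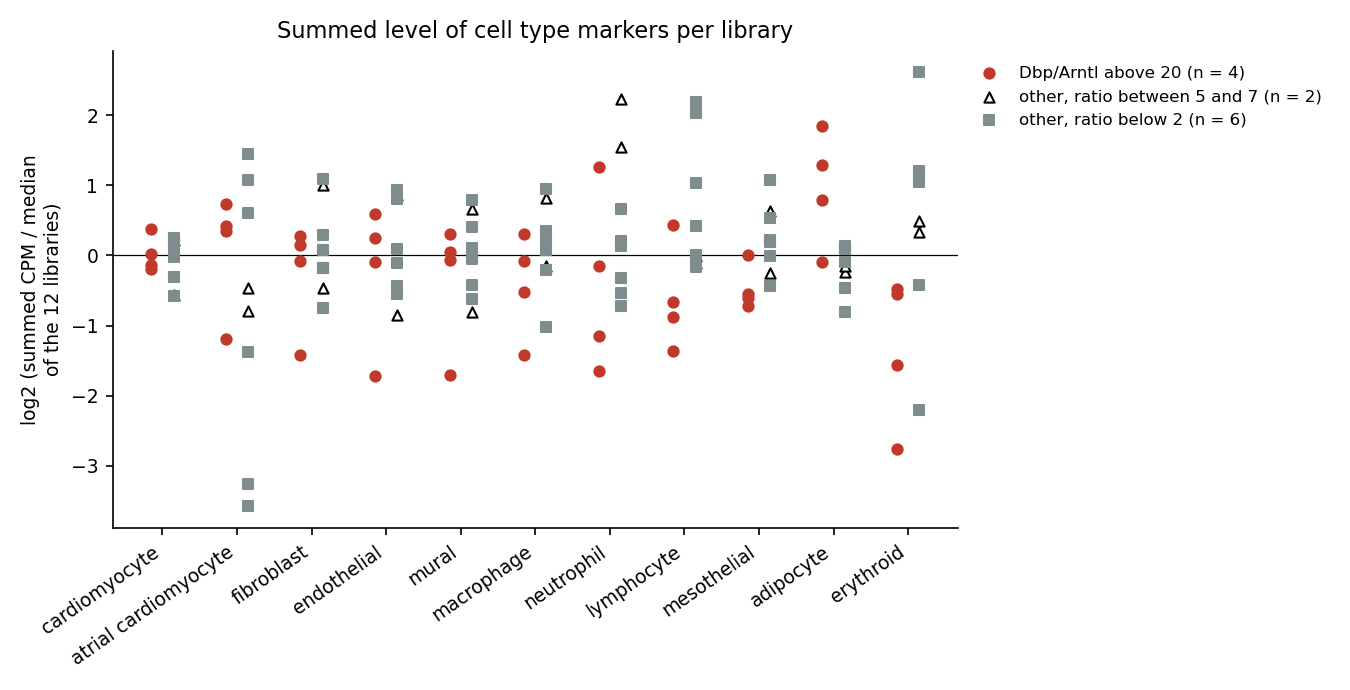
Summed CPM of the markers of 11 cell types per library, as log2 over the median of the 12 libraries (vertical axis), with the 4 libraries of high ratio left of the 8 others for each type. The sets overlap for every type drawn, and sham JV101 replicate 3 is the lowest point for fibroblasts.

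The ratio was then set against the labels, which did not make the split. It was 86, 0.684 and 62.5 in NX JV101 replicates 1, 2 and 3, and 6.29, 36.0 and 0.509 in NX saline replicates 1, 2 and 3. It was 5.11, 1.01 and 53.2 in sham JV101 replicates 1, 2 and 3, and 0.818, 0.818 and 1.08 in sham saline replicates 1, 2 and 3. Every group except sham saline thus held ratios both below 7 and above 20. The log2 ratio averaged 3.12 ± 3.28 in NX and 1.27 ± 2.40 in sham libraries (SD, n = 6 each), a difference of 1.84 (2-sided exact permutation test, p = 0.323, adjusted over both comparisons 0.323). It averaged 3.32 ± 3.14 in JV101 and 1.06 ± 2.37 in saline libraries (SD, n = 6 each), a difference of 2.26 (exact permutation p = 0.156, adjusted 0.312). A high ratio was found in 3 of 6 NX and 1 of 6 sham libraries, and in 3 of 6 JV101 and 1 of 6 saline libraries. Neither difference passed the threshold, and with this spread differences of this size could not be told from 0.

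In the labelled comparisons no gene passed an adjusted p of 0.05 with edgeR's quasi-likelihood test, for NX minus sham (0%, smallest adjusted p = 0.860, 629 genes at an unadjusted p under 0.05) or for JV101 minus saline (0%, smallest adjusted p = 0.763, 329 genes). With the split as an added term the counts remained 0, while 1779 genes for NX and 641 for JV101 had an unadjusted p under 0.05. All of these are counts out of 14412 genes. Some genes reach an unadjusted p under 0.05 without any difference, so these counts are not read as effects. The split in that fit was also made on a readout of the same data. Limma on log2 FPKM also called 0, and DESeq2 called 1 gene for NX and 7 for JV101. With group alone, the fitted NX minus sham difference was 0.31 ± 0.32 for Tef, 0.95 ± 0.58 for Ciart and -0.86 ± 0.28 for Nfil3 (edgeR adjusted p = 0.862, 0.860 and 0.860). For JV101 minus saline it was 0.36 ± 0.32 for Tef and 1.05 ± 0.58 for Ciart (edgeR adjusted p = 1.00 for both). Values of clock genes with the split as a term are not given, since the split was made on clock genes.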

How the data were processed

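PolyA RNA of isolated cardiomyocytes was sequenced, per the labels' protocols. Per the submitters' processing notes, fastp, HISAT2 and HTSeq were used with GRCm39; their versions and the strand setting are not in the labels. For 12 libraries the authors deposited counts of 22794 genes and FPKM values. The counts were used for every result, and FPKM for levels per length and as an alternative. The edgeR function filterByExpr, at a minimum count of 10 and a minimum total of 15, left 14412 genes, scaled by TMM. The split (Dbp/Arntl counts above 20) was fitted with edgeR's quasi-likelihood model beside the labelled group over all 12 libraries, with no p-value. SE is the absolute log2 difference divided by the square root of F. Labelled comparisons used the quasi-likelihood F test with Benjamini-Hochberg adjustment at 0.05, and the ratio an exact permutation test over 924 groupings. The fits were also run on simulated counts with planted changes. Those counts held no shifts of cell types between libraries, so they do not show how the fits handle such shifts.

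The split, gene lists and tests were chosen with earlier results of these data known. The clock lists were named. So were up to 12 genes per direction with the largest difference among those without overlap and of at least 2-fold and 1 CPM. The 4 most different members of each other list were selected too, but not all of these are given, and none from some lists. The values of 1 counted clock gene are not reported here. Genes named for a 1.5-fold difference, Chordc1, Wee1 and Sqstm1 were chosen after their values were seen. Alternatives were RLE scaling, DESeq2, other filters, limma on log2(FPKM + 1) and log2(FPKM + 0.1), dropping mitochondrially encoded genes, a block for the replicate number and leaving out each library. The software was edgeR 4.0.16, DESeq2 1.42.0 and limma 3.58.1 in R 4.3.3. Depth limits low genes, since Arntl had only 27 to 55 counts in the 4 libraries.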

Additional observations from a re-analysis of the deposited data

How the results depend on the processing

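The count of clock genes without overlap stayed between 6 and 8 of 18 in each alternative run. The genome-wide counts were less stable. Against 11 genes higher and 22 lower by 2-fold, there were 24 higher with no filter, 4 and 4 with a filter of 5 CPM in 3 libraries, and 28 and 36 at 1.5-fold. Counted within the 3 groups that hold both kinds there were 127 and 283. Limma gave 0 lower on log2(FPKM + 1) and 3 lower on log2(FPKM + 0.1), where the median difference of all genes was 0.11 against -0.01 with TMM. Without the 2 libraries of intermediate ratio, chosen after seeing the data, there were 22 and 39. Leaving out 1 library gave 12 to 30 higher and 24 to 69 lower, with 30 and 69 without NX saline replicate 2, 24 and 63 without NX JV101 replicate 3, and 22 and 50 without sham saline replicate 1. The count higher also passed 1.5 times the full count without sham saline replicates 2 (18) and 3 (17), sham JV101 replicate 3 (18), NX saline replicate 1 (17) and NX JV101 replicate 1 (21). With fewer libraries to clear, absence of overlap is easier to reach. DESeq2 called 1 gene for NX minus sham (Niban3) and 7 for JV101 minus saline (Lrp2, Lrrn4, Msln, Muc16, Pdk4, Upk3b and Xpnpep2), where edgeR called 0; the cause was not tested. Deviations of same-numbered replicates from their group means had correlations of -0.61 to 0.30 over 18 pairs, with a median of -0.0084. For pairs with other numbers the median was 0.0095. Whether the numbers mark a shared batch was not tested, and the main fits treated the libraries as unpaired. A replicate block gave 12 higher, 21 lower and 0 called in either labelled comparison. For 27 single genes, 557 of 615 values under alternatives moved by no more than the SE of the main fitted difference. A change of sign was counted only for genes with no overlap and a 2-fold difference, and none of these changed sign.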

Other observations

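Genes that fold proteins in the endoplasmic reticulum were noticed among those lower in the 4 libraries of high ratio, and a list of 27 such genes was then written with their values known. Of these, 9 lay wholly below and 0 wholly above, and 18 had a negative fitted difference, with a median of -0.32 (log2). Among all 14410 genes, 59 lay wholly below (0.409%) and 7483 had a negative fitted difference. Since the list was written from these values, its counts are no test of such genes as a set. Manf, a secreted factor retained by the chaperone BiP, had 16.8 to 20.2 CPM in the 4 libraries, against 23.2 to 46.0 with a median of 29.4 in the 8 others. Its fitted difference was -0.70 ± 0.16. Xbp1, a transcription factor of the unfolded protein response, had 29.4 to 32.2 CPM against 36.0 to 60.8, a fitted difference of -0.55 ± 0.14. Pdia4, a disulfide isomerase, had 14.6 to 19.5 CPM against 19.6 to 43.1, and Hyou1, a chaperone, 19.8 to 25.5 CPM against 27.4 to 63.2. Hspa5, which encodes BiP itself, overlapped at 291 to 398 CPM against 310 to 635, and Herpud1 stood at 0.92 ± 0.20. With the fibroblast marker sum in the fit 21 of the 27 were negative, with a median of -0.21. Manf was then at -0.55 ± 0.19 and Xbp1 at -0.40 ± 0.15.

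Serpinh1, the collagen chaperone HSP47, lay wholly below at 110 to 153 CPM in the 4 libraries, against 159 to 349 CPM in the 8, a fitted difference of -0.80 ± 0.22 and of -0.49 ± 0.21 with the marker sum. P4ha1, a collagen prolyl hydroxylase, lay wholly below at 27.4 to 43.6 CPM against 44.2 to 131 CPM. Markers of erythroid cells summed to 17.5 to 84.4 CPM in the 4 libraries and 25.6 to 719 CPM in the 8, and the part of blood RNA in these values was not tested.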
